A study of Mus musculus with 9 samples.

Results

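Glial cultures from newborn mice that carry the normal human SOD1 gene, here called SOD1-WT, were compared with glial cultures from nontransgenic mice, with 3 Illumina mouse BeadArrays in each group. A detection p-value is the chance that background alone would give a signal at least as high as the probe's. The comparison took in every probe with a detection p-value under 0.01 on at least 3 of the 6 arrays. Of 24613 probes 13631 met that rule, and 11632 of these were matched to genes on the autosomes. They stand for 9342 genes of the 15395 autosomal genes with a probe, each taken by its brightest kept probe where it had several. The other kept probes were 365 X-linked ones, 2 Y-linked ones and 1632 with no gene symbol or no chromosome.

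The SOD1-WT pups were of the strain B6SJL-Tg(SOD1)2Gur/J, which carries an unmutated human SOD1 transgene. The nontransgenic pups are labelled B6SJL 2Gur/J. Another 3 arrays came from B6SJL-Tg(SOD1*G93A)2Gur/J pups, whose human SOD1 transgene encodes the G93A mutant protein of familial amyotrophic lateral sclerosis. The values of this SOD1-G93A group are given beside the others, and any reading of them against the nontransgenic arrays shares those same 3 arrays. All pups were 1 to 3 days old, meninges were stripped from the tissue, and cells dissociated with trypsin were grown to confluence in medium with 10% horse serum, so all groups share the culture conditions. The labels describe the replicates as biological but give neither the sex of the pups, nor the litters, nor the number of pups behind an array, nor the region of the nervous system. If the replicates shared a litter or a pool of pups, the p-values measure only the spread between such samples.

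SOD1 is the cytosolic copper and zinc enzyme that turns superoxide into hydrogen peroxide and oxygen, and the normal human protein is the usual control for mutant SOD1 mice. Primary glial cultures from newborn brain are mostly astrocytes, with microglia, cells of the oligodendrocyte lineage, ependymal cells that line the ventricles with motile cilia, and whatever fibroblasts of the meninges are carried over with the tissue. Meningeal fibroblasts make prostaglandin D2, retinoic acid and fibrillar collagen, while ependymal cells build many motile cilia whose core, the axoneme, needs a large set of dedicated proteins.

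The arrays were alike in depth. Each detected between 13107 and 13618 probes, and mean bead counts per probe ran from 34.8 to 35.7. The mean raw signal was 211 to 236 on 8 arrays and 279.6 on SOD1-WT array 3, where the median bead standard error was 6.84% of the signal against 5.08% to 5.23% on the other arrays. Over kept probes, the correlation of log2 intensities was 0.987 to 0.995 between arrays of 1 group and 0.953 to 0.966 between nontransgenic and SOD1-WT arrays. The Y-linked gene Kdm5d, outside the autosomal comparison, was detected on all 3 SOD1-WT arrays and on none of the other 6. Its log2 intensity was 6.94, 7.03 and 6.88 on the SOD1-WT arrays and lay between 4.13 and 4.19 on the nontransgenic and SOD1-G93A arrays. Against the nontransgenic arrays the difference was at least 5.05-fold. Of other Y-linked genes, Eif2s3y was detected on 2 SOD1-WT arrays and no others, Uty on no array, and 1 probe of Zfy2 in all 3 groups. With Kdm5d detected in the SOD1-WT group alone, the sex of the pups and the genotype cannot be told apart for that group.

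The mouse probe for Sod1 on chromosome 16 need not read the human transgene. Its log2 intensity was 11.14, 10.81 and 10.85 on the nontransgenic arrays, 11.24, 11.25 and 11.32 on the SOD1-WT arrays and 11.21, 11.06 and 11.05 on the SOD1-G93A arrays. All 3 SOD1-WT values lay above the 3 nontransgenic ones. Sod1 rose by 0.33 ± 0.11 (log2, standard error, n = 3 arrays a group, limma adjusted p = 0.033), a size of change that lost its call in 8 of 21 alternative settings. With SOD1-WT array 3 left out it was 0.31, with an adjusted p of 0.0639. Among the 14 measured genes of superoxide and copper handling, 4 rose and 1 fell, where 14.2% of all autosomal genes were higher and 13.3% lower. Only 2 rose without nontransgenic array 2, without nontransgenic array 3 or without SOD1-WT array 1, and 2 fell in the last case. The metallothionein gene Mt2 rose by 0.89 ± 0.12. Mt3, another, had a difference of 0.31 ± 0.11 that passed the test but lost its call in 12 of 21 alternative settings, with an adjusted p of up to 0.176, among them the replicate block and the omission of any 1 nontransgenic or SOD1-G93A array. Slc31a1, the plasma membrane copper importer, changed by -0.43 ± 0.11. Sod3, the secreted superoxide dismutase, had a log2 difference of -0.27 ± 0.11 (adjusted p = 0.0825), and Ccs, which loads copper onto SOD1, one of 0.17 ± 0.087 (adjusted p = 0.191).

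Of the 9342 autosomal genes, 2562 (27.4%) differed between SOD1-WT and nontransgenic glia at an adjusted p under 0.05, 1324 of them higher in SOD1-WT glia (14.2%) and 1238 lower (13.3%). Changes of at least 2-fold were found for 506 genes (5.42%), 241 higher and 265 lower. At 4-fold or more, 38 genes were higher and 76 lower. In 3727 genes (39.9%) the 3 values of one group did not overlap the 3 values of the other. These shares are the background against which each gene group is set, together with a median log2 change of 0.00 over all autosomal genes. Without SOD1-WT array 3 the count of called probes was 3021, against 3025 with it, and 2611 of the probes were the same.

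**Figure D1:**
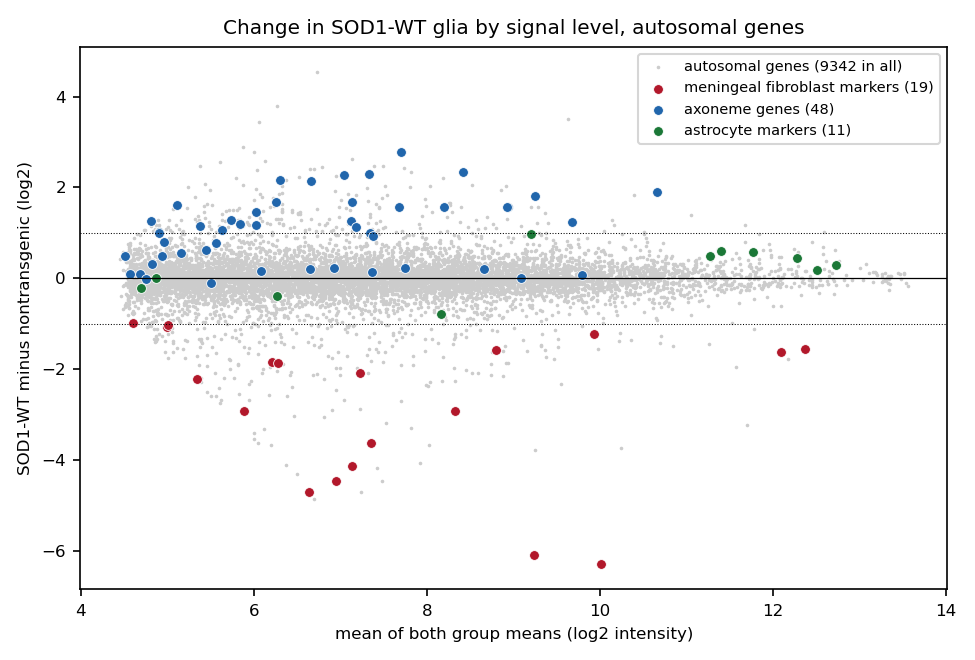
The log2 change of each of 9342 autosomal genes, SOD1-WT minus nontransgenic, on the vertical axis is plotted against the mean of both group means in log2 intensity on the horizontal axis. Grey points are all genes, coloured points are 19 meningeal fibroblast markers, 48 axoneme genes taken by symbol and 11 astrocyte markers. Dotted lines mark a 2-fold change. All 19 meningeal fibroblast markers lie below 0, with Ptgds and Mgp at the lowest values, and 45 of the 48 axoneme genes lie above 0.

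Genes of the motile cilium were higher in SOD1-WT glia. The 48 measured genes of the axoneme, a family chosen by symbol after its values had been seen, had 36 members higher in SOD1-WT glia and none lower, against 14.2% and 13.3% of all genes. Members were taken by the stem of the symbol and not checked singly, so the family holds some genes of other functions. Spag5, a protein of the mitotic spindle that did not pass the test, is 1 of them. In 27 of the 36 the change was at least 2-fold. The median over the 48 was 1.09, or 1.03 with the 5 genes that no nontransgenic array detected set to their lowest possible change. The count stayed at 36 without SOD1-WT array 3 and ran from 28 to 36 over all alternative settings.

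Dynlrb2, a light chain of the dynein motors, had log2 intensities of 9.64, 9.79 and 9.70 on the nontransgenic arrays, 11.61, 11.62 and 11.63 on the SOD1-WT arrays and 10.44, 10.56 and 10.41 on the SOD1-G93A arrays. The SOD1-WT arrays were nearly alike and lay above the nontransgenic ones, with the SOD1-G93A arrays between. The rise was 1.91 ± 0.092 (limma adjusted p = 3.45e-09). Rsph4a on chromosome 10, a head protein of the radial spokes that regulate ciliary beat, stood at 7.14, 7.33 and 7.30 on the nontransgenic arrays, 9.55, 9.41 and 9.82 on the SOD1-WT arrays and 8.003, 7.88 and 7.85 on the SOD1-G93A arrays. The order of the groups was the same, and the rise in SOD1-WT glia was 2.34 ± 0.11 (adjusted p = 3.9e-09). Odf3b on chromosome 15 gave 6.23, 6.52 and 6.20 on the nontransgenic arrays, 9.18, 8.98 and 9.12 on the SOD1-WT arrays and 6.07, 6.64 and 6.07 on the SOD1-G93A arrays. Here the SOD1-G93A arrays lay with the nontransgenic ones, and the rise in SOD1-WT glia was 2.78 ± 0.15, with 2.41 for the gene's other probe.

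Further axoneme genes passed the test. Cfap52, Cfap161 and Cfap70, cilia and flagella associated proteins, rose by 2.28 ± 0.12, 2.27 ± 0.13 and 2.16 ± 0.17. Spag6l, a protein of the central pair apparatus, rose by 2.14 ± 0.11, and the tektins Tekt1 and Tekt4, filament proteins of the microtubule doublets, by 1.56 ± 0.10 and 1.45 ± 0.11. Rsph1 and Rsph9, also of the radial spokes, rose by 1.57 ± 0.11 and 1.25 ± 0.10. Among the chains of the dynein arms, Dnaic1, an intermediate chain of the outer arm, rose by 1.13 ± 0.14, Dnah1, a heavy chain of the inner arm, by 1.00 ± 0.11, and Dnah5, a heavy chain of the outer arm, by 0.80 ± 0.11. Zmynd10, needed to assemble the dynein arms in the cytoplasm, rose by 1.28 ± 0.10. Cfap57 was not detected on any nontransgenic array and was at least 2.47-fold higher in SOD1-WT glia.

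The transcription factors and regulators of motile ciliogenesis moved in the same direction. Foxj1, the forkhead factor that switches on the motile cilium programme, had log2 intensities of 4.66, 4.96 and 4.83 on the nontransgenic arrays, 5.73, 6.05 and 6.10 on the SOD1-WT arrays and 5.16, 4.95 and 5.11 on the SOD1-G93A arrays. The SOD1-WT values lay above all 6 others. Its rise was 1.15 ± 0.12 (limma adjusted p = 6.85e-06). Of the other regulators, chosen after their values had been seen, Ccno, which is needed to multiply centrioles, rose by 1.33 ± 0.099 and Rfx2 by 1.21 ± 0.11. Rfx3 was not detected on any nontransgenic array and was at least 1.38-fold higher, while Rfx5, a member of the RFX family that acts on major histocompatibility genes, had a log2 difference of -0.083.

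Intraflagellar transport carries building material along the cilium, and the BBSome is a coat complex that moves membrane proteins in it. Of 22 measured genes of both, also chosen after their values had been seen, 15 rose and 0 fell, and the median was 0.48. Of all autosomal genes 14.2% rose and 13.3% fell. Ift88 and Ift81, subunits of the complex that moves toward the tip, rose by 0.97 ± 0.12 and 0.95 ± 0.12. Bbs7, Bbs1 and Bbs4 rose by 0.71 ± 0.091, 0.48 ± 0.11 and 0.47 ± 0.11. Kif3a, a motor subunit for that transport, rose by 1.31 ± 0.15 on its brightest probe and by 2.80 ± 0.14 on its other probe. These genes also serve the primary cilia that most cell types carry.

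The listed markers of ependymal cells comprised 6 genes matched to probes, of which 5 were measured and all 5 rose (Dynlrb2, Pifo, Rsph1, Foxj1 and Dnah5), with a median of 1.57. The sixth, Tmem212, was not detected in either group. Summed over the listed markers on the linear scale after background correction, the signal was 1123 to 1275 on the nontransgenic arrays, 1869 to 1985 on the SOD1-G93A arrays and 4336 to 4627 on the SOD1-WT arrays. In whole cultures more cells of a type cannot be told apart from more RNA of these genes per cell, and this holds for every cell marker below.

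**Figure D2:**
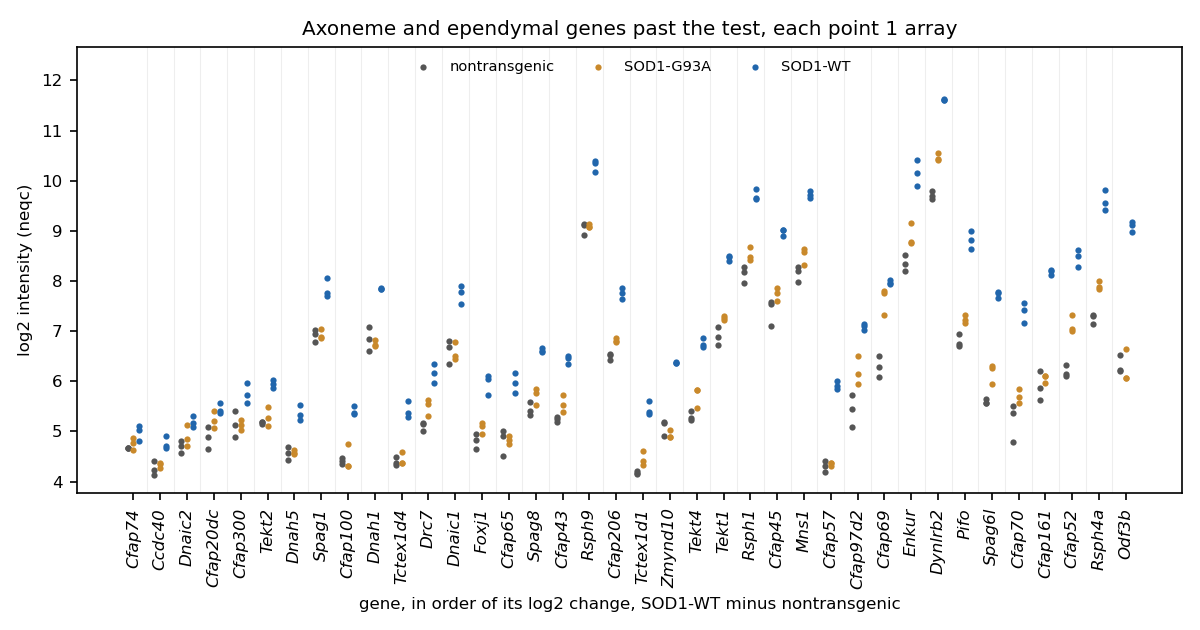
Log2 intensity (vertical axis) of 38 axoneme and ependymal genes past the test, 1 point per array, in order of the log2 change, with nontransgenic, SOD1-G93A and SOD1-WT glia in 3 colours. The genes were drawn because they passed, so the separation of SOD1-WT from nontransgenic points follows from that choice. The SOD1-G93A points are shown beside them, and those arrays entered the choice only through the joint normalization and the shared estimate of spread.

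RFX factors bind the X-box, whose palindromic form was searched as GTNNCCNNGGNNAC, a spelling that reads the same on both strands, in the 250 bases before to 50 bases after each start site (RefSeq, GRCm38.p6). Of the axoneme and ependymal genes that rose, 33 had a promoter in that table, and 9 of them (27.3%) held a match, against 583 of 27025 genes (2.16%) in the table and 217 of 7550 measured autosomal genes (2.87%). Among the 10 genes of these groups that did not pass the test 1 (10%) held it, namely Spag5, which is not an axoneme gene. Among 13 transport and BBSome genes that rose 5 did (38.5%). A second spelling, GTTNCCNNNGNNAC, gave 11 of the 33 (33.3%) against 2.53% of all genes and 3.39% of the measured autosomal genes, and 2 of the 10 genes that did not pass. Of 12 meningeal markers that fell 1 (8.33%) held a match under each spelling, Igf2 under the first and a different gene, Slc6a13, under the second. The spellings overlap, were chosen with the genes already known to be high, and a match is a description of the letters and not of binding. The promoters of 5 of these genes are printed because their match lies wholly before the start site, with the matched bases in capitals.
Pifo: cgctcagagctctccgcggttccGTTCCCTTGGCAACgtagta
Cfap206: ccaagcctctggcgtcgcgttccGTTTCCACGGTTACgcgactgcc
Odf3b: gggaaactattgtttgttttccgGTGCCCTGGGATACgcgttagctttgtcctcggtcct
Tekt4: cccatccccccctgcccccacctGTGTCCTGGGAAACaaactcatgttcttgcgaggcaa
Cfap20dc: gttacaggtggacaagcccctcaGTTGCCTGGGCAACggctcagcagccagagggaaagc
In GRCm38.p6 these stretches lie at chr3:106001498-106001540 on the minus strand for Pifo, chr4:34730207-34730252 on the minus strand for Cfap206, chr15:89379265-89379324 on the minus strand for Odf3b, chr17:25471407-25471466 on the plus strand for Tekt4 and chr14:8666356-8666415 on the minus strand for Cfap20dc. The centre of the match lies 13, 16, 40, 153 and 95 bases before the start site in that order of genes. Pifo itself, which acts at the base of cilia, had log2 intensities of 6.71, 6.95 and 6.75 on the nontransgenic arrays, 8.63, 8.81 and 8.998 on the SOD1-WT arrays and 7.17, 7.33 and 7.22 on the SOD1-G93A arrays. The groups did not overlap, and Pifo rose by 2.01 ± 0.11 (limma adjusted p = 1.31e-08).

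The opposite change was seen in markers of the meninges. All 19 measured markers of meningeal fibroblasts were lower in SOD1-WT glia, 18 of them by at least 2-fold, with a median of -2.10, or -1.87 with the 4 genes that no SOD1-WT array detected set to their bound. The twentieth listed marker with a probe, Foxc1, was not detected in either group. The count was 19 whichever array was left out, and 12 where only probes detected on all 6 arrays were kept. The summed signal of the markers was 36409 to 38403 on the nontransgenic arrays, 27807 to 28972 on the SOD1-G93A arrays and 6071 to 7773 on the SOD1-WT arrays. The members were listed with earlier results of these data known, and the count describes the list beside the 13.3% of all genes that fell and is not a test of it.

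Ptgds on chromosome 2 makes prostaglandin D2 and is among the most abundant transcripts of the leptomeninges. Its log2 intensity was 13.12, 13.17 and 13.20 on the nontransgenic arrays, 6.88, 6.85 and 6.86 on the SOD1-WT arrays and 12.86, 12.97 and 12.89 on the SOD1-G93A arrays. The nontransgenic and SOD1-G93A arrays were high and the SOD1-WT arrays low, with no overlap. Ptgds fell by 6.30 on the log2 scale (standard error 0.088, limma adjusted p = 1.38e-14), the largest change of any autosomal gene here. Mgp, an inhibitor of mineral deposition in matrix, stood at 12.23, 12.34 and 12.27 on the nontransgenic arrays, 5.84, 6.47 and 6.27 on the SOD1-WT arrays and 10.47, 10.75 and 10.66 on the SOD1-G93A arrays. The SOD1-G93A arrays lay between, and the change from nontransgenic to SOD1-WT glia was -6.09 ± 0.14 (adjusted p = 2.24e-12). The transcription factor Foxc2 gave 9.15, 8.82 and 9.02 on the nontransgenic arrays, 4.32, 4.36 and 4.18 on the SOD1-WT arrays and 7.39, 7.53 and 7.18 on the SOD1-G93A arrays. It was detected on no SOD1-WT array and was at least 21.1-fold lower there.

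Other transcription factors of the meninges and perivascular cells fell as well. Foxd1 changed by -3.63 ± 0.13, Tbx18 by -1.86 ± 0.11 and Zic1, which astrocytes of some regions also express, by -1.23 ± 0.12. Ranbp3l, a nuclear export factor, changed by -4.47 ± 0.16 and Vtn, the adhesion protein vitronectin, by -4.13 ± 0.15. Igf2, a growth factor that meninges secrete, had log2 intensities of 12.89, 12.93 and 12.90 on the nontransgenic arrays, 11.16, 11.39 and 11.28 on the SOD1-WT arrays and 12.48, 12.34 and 12.72 on the SOD1-G93A arrays. All 3 SOD1-WT values were lower than the other 6. Its change was -1.63 ± 0.11 (limma adjusted p = 7.47e-08). Slc47a1 and Slc22a6, which move organic cations and anions, were at least 1.9-fold and 1.42-fold lower and were detected on no SOD1-WT array.

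**Figure D3:**
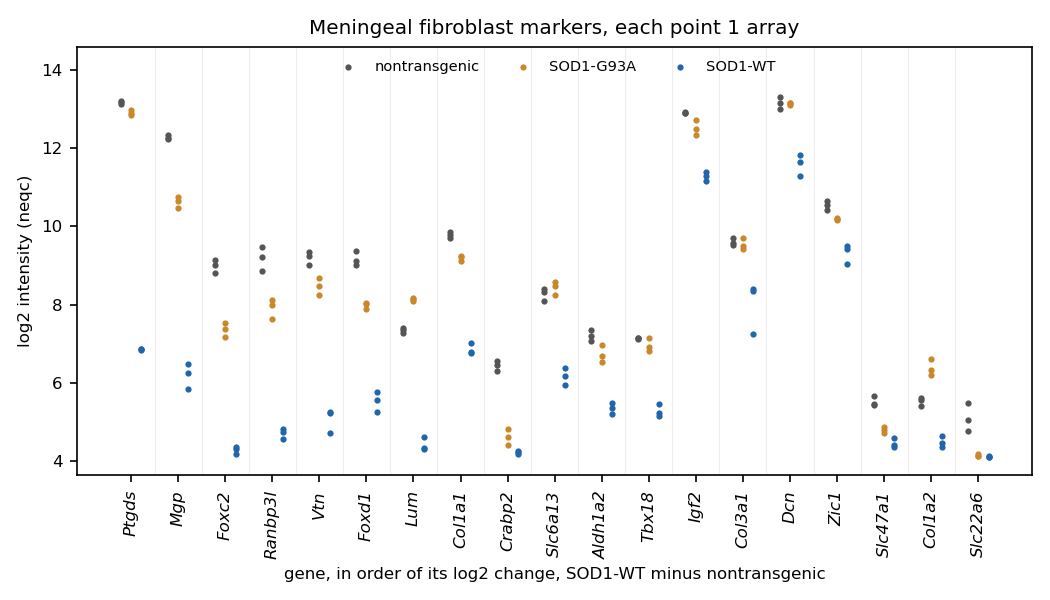
Log2 intensity of the meningeal fibroblast markers on each array, 1 point per array, coloured by group. For each of the 19 markers the 3 SOD1-WT points lie below the 3 nontransgenic points, while the SOD1-G93A points of Lum, at 8.09 to 8.16, lie above the nontransgenic ones at 7.27 to 7.41.

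The 20 largest falls also held genes outside the marker list. Igfbp6, which binds insulin-like growth factor 2, stood at 9.63, 9.69 and 9.47 on the nontransgenic arrays, 4.90, 4.90 and 4.86 on the SOD1-WT arrays and 7.67, 7.95 and 7.83 on the SOD1-G93A arrays. The 3 groups separated in that order, and the change was -4.71 ± 0.10 (limma adjusted p = 1.38e-12). Cldn11, a tight junction protein of arachnoid cells and myelin, gave 12.24, 12.01 and 12.07 on the nontransgenic arrays, 8.21, 8.38 and 8.54 on the SOD1-WT arrays and 10.86, 10.78 and 10.81 on the SOD1-G93A arrays. Again SOD1-G93A glia lay between the others, with a change of -3.73 ± 0.11 in SOD1-WT glia (adjusted p = 1.49e-11). Fam180a was at least 23-fold lower, Smoc2, a secreted calcium-binding matrix protein, at least 14.2-fold and Entpd3, a surface enzyme that breaks down nucleotides, at least 9.02-fold. Thsd4, Itih2 and Mpzl2 changed by -4.06 ± 0.095, -3.77 ± 0.10 and -3.67 ± 0.15. The probes for Defa31, an intestinal antimicrobial peptide, and Reg3g, a secreted lectin, also fell, by at least 9.59-fold and 8.64-fold, with nontransgenic values that spread from 7.13 to 8.57 and from 7.12 to 8.54.

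Of 9 measured genes of retinoid uptake, synthesis, breakdown and response 7 fell and none rose, with a median of -1.36 (1 rose without SOD1-WT array 3). That is 77.8% past the test, against 27.4% of all autosomal genes. Of the 7 that are not also meningeal markers 5 fell. Stra6, the receptor that takes up retinol from its binding protein, had log2 intensities of 9.62, 9.45 and 9.49 on the nontransgenic arrays, 5.37, 5.15 and 5.48 on the SOD1-WT arrays and 8.20, 8.40 and 8.18 on the SOD1-G93A arrays. The groups were far apart, and the change was -4.19 ± 0.11 (limma adjusted p = 6.92e-12). Of the enzymes that make retinoic acid, Aldh1a2 changed by -1.87 ± 0.13 and Aldh1a1 by -1.36 ± 0.089. Cyp26b1, which degrades retinoic acid and is induced by it, changed by -1.96 ± 0.10, from 12.65, 12.50 and 12.50 on the nontransgenic arrays to 10.48, 10.55 and 10.74 on the SOD1-WT arrays. Crabp2, which carries retinoic acid to its receptors, was at least 3.6-fold lower, and the receptor genes Rarb and Rarg changed by -0.64 ± 0.11 and -0.51 ± 0.12. The summed meningeal signal moved with these genes, and its part in them was not tested.

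In the prostaglandin pathway 12 genes were measured, of which 5 fell and 1 rose, 50% past the test against 27.4% of all autosomal genes. The falls ran from 1 to 6 over the alternative settings. Ptgis, Ptges, Ptgs2 and Ptger3 were not tested where detection on all 6 arrays was required, and Ptgds, the other fall, is a meningeal marker. Ptgis and Ptger3 met the detection rule only through the nontransgenic arrays. Ptgis, prostacyclin synthase, gave 8.30, 7.88 and 7.92 on the nontransgenic arrays, 4.30, 4.50 and 4.27 on the SOD1-WT arrays and 6.45, 6.26 and 6.34 on the SOD1-G93A arrays. It was detected on no SOD1-WT array and was at least 10.8-fold lower. Ptgs2, the inducible cyclooxygenase, changed by -1.81 ± 0.22, Ptges, an inducible prostaglandin E synthase, by -1.36 ± 0.14, and the receptor gene Ptger3 was at least 1.97-fold lower. Ptges3, a cochaperone also named as a prostaglandin E synthase, rose by 0.48 ± 0.11, and a second gene rose without nontransgenic array 1.

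Among 14 measured collagen genes 5 fell and 2 rose, 50% past the test against 27.4% of all autosomal genes. Among the 11 that are not meningeal markers 2 fell and 2 rose. Col1a1, the main fibrillar collagen of connective tissue, had log2 intensities of 9.78, 9.70 and 9.87 on the nontransgenic arrays, 6.80, 6.77 and 7.03 on the SOD1-WT arrays and 9.22, 9.11 and 9.23 on the SOD1-G93A arrays. SOD1-WT glia were low, and the change was -2.91 ± 0.10 (limma adjusted p = 1.4e-10). Col6a1 changed by -1.06 ± 0.11, while Col8a2 rose by 1.35 ± 0.11 and Col15a1 by 0.87 ± 0.10. Of 19 small proteoglycans and matrix glycoproteins 8 fell and 3 rose (57.9% past the test). Decorin, Dcn, fell on each of its 4 probes, by log2 values from -1.56 to -2.38, fibronectin, Fn1, on each of its 4 probes, from -0.55 to -1.53, and Fbln1, fibulin 1, by -3.03 ± 0.14.

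Sparc, a collagen-binding glycoprotein that astrocytes and many other cells secrete, went the other way. Its log2 intensity was 7.86, 7.87 and 7.91 on the nontransgenic arrays, 11.59, 11.64 and 10.89 on the SOD1-WT arrays and 10.70, 11.02 and 10.89 on the SOD1-G93A arrays. Both transgenic groups lay above the nontransgenic arrays, and SOD1-WT array 3 lay at the level of the SOD1-G93A arrays. The rise in SOD1-WT glia was 3.50 ± 0.17 (limma adjusted p = 2.83e-09). No other probe of Sparc was kept, so the rise could not be compared between probes.

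No gene for a matrix protease or its inhibitor rose, and 11 of 18 fell, with a median of -0.51. That is 61.1% past the test, against 27.4% of all autosomal genes. The gelatinase gene Mmp2 gave 10.27, 10.01 and 10.17 on the nontransgenic arrays, 8.47, 8.77 and 8.50 on the SOD1-WT arrays and 10.04, 10.12 and 9.99 on the SOD1-G93A arrays. The nontransgenic and SOD1-G93A arrays overlapped and the SOD1-WT arrays lay below both, with a change of -1.57 ± 0.11 (limma adjusted p = 1.09e-07). Lox, which cross-links collagen and elastin, changed by -1.45 ± 0.14, the aggrecanase gene Adamts5 by -1.01 ± 0.11, Adamts1 by -1.09 ± 0.11, the stromelysin Mmp3 by -0.88 ± 0.15 and Plat, tissue plasminogen activator, by -0.74 ± 0.094. In basement membranes and integrins 4 genes fell and 4 rose of 18 (44.4% past the test). Nid1, which links laminin to collagen IV, changed by -1.63 ± 0.13, and Itgb4, the integrin of hemidesmosomes, by 1.60 ± 0.14. The 4 rises became 2 or 3 when any 1 array was left out. The summed meningeal fibroblast signal, 36409 to 38403 on the nontransgenic and 6071 to 7773 on the SOD1-WT arrays, moved in the same direction as the protease genes and as the prostaglandin, collagen and glycoprotein genes that fell, and its part in them was not tested.

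Of 25 genes of BMP and TGF-beta signalling 9 fell and 2 rose, 44% past the test against 27.4% of all autosomal genes. The ligand genes Bmp4 and Bmp7 had the smallest p-values. Bmp4 stood at 9.70, 9.32 and 9.36 on the nontransgenic arrays, 7.09, 7.19 and 7.29 on the SOD1-WT arrays and 8.88, 8.95 and 8.81 on the SOD1-G93A arrays. SOD1-WT glia were lowest, with a change of -2.27 ± 0.11 (limma adjusted p = 4.88e-09). Bmp7 changed by -2.14 ± 0.10, Tgfb1 by -0.93 ± 0.11, and the BMP antagonists Chrd and Nog by -0.80 ± 0.13 and -0.84 ± 0.16, while the receptor gene Bmpr1b rose by 1.17 ± 0.11. Of 20 Wnt genes 6 fell and 4 rose (50% past the test). The falls ran from 2 to 8 over the alternative settings, because Sfrp4, Wnt2, Wnt6 and Frzb were not tested where detection on all 6 arrays was required. In this list 4 genes were detected on no array of the group where they were lower, and met the detection rule only through the other group. The secreted antagonist Sfrp4 was at least 5.15-fold lower, Wif1, another, changed by -2.39 ± 0.14, the receptor Fzd7 by -1.49 ± 0.12, and the ligand Wnt2 was at least 2.09-fold lower. Lrp6, a Wnt coreceptor, rose by 1.05 ± 0.11. In the Notch pathway 5 of 11 genes rose and 2 fell (63.6% past the test). The receptor Notch1 rose by 0.55 ± 0.088 and its targets Hey1 and Hey2 by 0.52 ± 0.098 and 1.06 ± 0.15, while Notch3 changed by -0.61 ± 0.097. The 2 falls became 1 without any 1 of nontransgenic arrays 2 and 3, SOD1-G93A array 1 and SOD1-WT arrays 1 and 3. Of 5 measured hedgehog genes Shh alone passed (20%, below the 27.4% of all autosomal genes), with a rise of 0.57 ± 0.11.

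Gap junction genes passed the test in both directions. Gjb2, a connexin that meningeal cells carry, gave 9.11, 8.90 and 9.37 on the nontransgenic arrays, 6.02, 6.07 and 5.72 on the SOD1-WT arrays and 7.95, 8.01 and 7.72 on the SOD1-G93A arrays. The change in SOD1-WT glia was -3.19 ± 0.14 (limma adjusted p = 1.04e-09), and the groups did not overlap. Gjb6, a connexin of astrocytes and meninges, changed by -1.59 ± 0.12, whereas Gja1, the main gap junction protein of astrocytes, rose by 0.30 ± 0.093, a call lost in 6 alternative settings. The water channel Aqp1 of the choroid plexus changed by -4.45 ± 0.22 and by -2.02 on its other probe, while Aqp4, the water channel of astrocyte endfeet, rose by 0.59 ± 0.10.

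The solute carriers were a family of 192 measured genes taken by symbol after the values had been seen. Of these 25 were higher and 45 lower, against 14.2% and 13.3% of all autosomal genes, with a median of -0.04. Without nontransgenic array 2, 16 were higher. At least 2-fold changes were found in 4 higher and 13 lower genes, against 5.42% of all autosomal genes in either direction. Slc14a1, a urea transporter of astrocytes, rose by 1.48 ± 0.094, and the zinc importer Slc39a4 by 1.46 ± 0.12. Slc6a13, a GABA and taurine carrier of meninges, changed by -2.10 ± 0.13, and Slc35g1 by -2.68 ± 0.13. Slc22a8, an organic anion carrier of barrier cells, and Slc9b2, a sodium and proton exchanger, were detected on no SOD1-WT array and were at least 2.28-fold and 4.35-fold lower.

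Of 11 measured astrocyte markers 6 rose and 1 fell, against 14.2% and 13.3% of all genes, and the median was 0.30. The 1 fall became 0 without nontransgenic array 1 and 2 without SOD1-WT array 1. Gfap, the intermediate filament protein of astrocytes, had log2 intensities of 8.78, 8.65 and 8.71 on the nontransgenic arrays, 9.70, 9.37 and 10.01 on the SOD1-WT arrays and 9.66, 9.52 and 9.23 on the SOD1-G93A arrays. Both transgenic groups lay above the nontransgenic arrays and overlapped each other. Gfap rose by 0.98 ± 0.15 (limma adjusted p = 0.000235). Sox9, a transcription factor of astrocytes and ependymal cells, rose by 0.57 ± 0.095, Ndrg2 by 0.48 ± 0.096 and Slc1a3, the glutamate transporter GLAST, by 0.44 ± 0.099. Slc1a2, the other main glutamate transporter, had a difference of -0.22 ± 0.11 (adjusted p = 0.152). The summed astrocyte signal was 22896 to 24733 on the nontransgenic arrays, 26638 to 28388 on the SOD1-G93A arrays and 29684 to 31953 on the SOD1-WT arrays.

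Glul, which makes glutamine from glutamate in astrocytes, stood against this with 8.73, 8.58 and 8.36 on the nontransgenic arrays, 8.17, 8.03 and 7.12 on the SOD1-WT arrays and 8.52, 8.45 and 8.39 on the SOD1-G93A arrays. SOD1-WT array 3 was the lowest, and the change was -0.78 ± 0.21 (limma adjusted p = 0.0123). It was -0.46 without that array and -0.70 without nontransgenic array 1, with an adjusted p of 0.0531 in the latter case. In glutamate and potassium handling as a whole 6 of 14 genes rose and 3 fell, 64.3% past the test against 27.4% of all autosomal genes. The potassium channel gene Kcnj16 rose by 0.72 ± 0.097 and the neuronal glutamate transporter gene Slc1a1 changed by -0.74 ± 0.12.

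Markers of microglia were nearly level. Of 10 measured markers 1 rose and 1 fell, with a median of -0.01, 20% past the test against 27.4% of all autosomal genes. Their summed signal was 8634 to 11776 on the nontransgenic and 9556 to 9898 on the SOD1-WT arrays. Cx3cr1, the fractalkine receptor, gave 7.76, 8.16 and 8.41 on the nontransgenic arrays, 9.13, 9.36 and 9.19 on the SOD1-WT arrays and 8.54, 8.73 and 8.79 on the SOD1-G93A arrays. It rose by 1.12 ± 0.15 (limma adjusted p = 5.2e-05), and C1qb changed by -0.42 ± 0.11, a call lost without nontransgenic array 2, nontransgenic array 3 or SOD1-WT array 1. Without nontransgenic array 1 the falls were 2. Trem2 and Tyrobp, a receptor and its signalling partner, had differences of -0.12 ± 0.16 and 0.18 ± 0.12 that did not pass the test.

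Of 5 measured markers of macrophages at the brain's borders 4 fell, 80% past the test against 27.4% of all autosomal genes. The summed signal was 3443 to 4118 on the nontransgenic, 3828 to 4350 on the SOD1-G93A and 2302 to 2777 on the SOD1-WT arrays. Lyve1, a hyaluronan receptor, had log2 intensities of 7.69, 8.62 and 8.70 on the nontransgenic arrays, 5.05, 5.44 and 5.38 on the SOD1-WT arrays and 8.23, 8.39 and 8.55 on the SOD1-G93A arrays. The SOD1-WT arrays were lowest without overlap, and the change was -3.05 ± 0.21 (limma adjusted p = 1.1e-07). Cbr2, a carbonyl reductase, changed by -2.22 ± 0.13, the folate receptor gene Folr2 by -0.81 ± 0.13 and the mannose receptor gene Mrc1 by -0.63 ± 0.15. Pf4, a chemokine, had a difference of -0.22 ± 0.15 (adjusted p = 0.32).

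Other cell markers were mixed. Cdh5, the cadherin of endothelial junctions, stood at 8.81, 8.59 and 8.56 on the nontransgenic arrays, 4.38, 4.28 and 4.37 on the SOD1-WT arrays and 7.82, 7.68 and 7.56 on the SOD1-G93A arrays. It was detected on no SOD1-WT array and was at least 16.6-fold lower. The endothelial markers Flt1 and Emcn, however, rose by 0.50 ± 0.098 and 0.69 ± 0.15, Ly6c1 changed by -0.57 ± 0.13, and Cldn5, Kdr, Tek and Tie1 were detected in neither group. The summed endothelial signal was 517 to 592 on the nontransgenic and 181 to 216 on the SOD1-WT arrays. Most of the nontransgenic sum was Cdh5, so the sum followed that gene and does not describe the rest of the list. Of 5 measured genes of the choroid plexus list 2 rose and 2 fell, 80% past the test against 27.4% of all autosomal genes. Folr1, a folate receptor, rose from 6.38, 5.92 and 6.17 on the nontransgenic arrays to 8.82, 8.61 and 8.46 on the SOD1-WT arrays, by 2.47 ± 0.13, and the homeobox gene Otx2 by 1.91 ± 0.16. Ttr, the most abundant transcript of that tissue, had a difference of 0.086 ± 0.52 between SOD1-WT and nontransgenic glia, and read 9.12, 8.15 and 5.95 on the SOD1-G93A arrays. Aqp1, described above, changed by -4.45 ± 0.22 and Clic6, an intracellular chloride channel protein, by -0.44 ± 0.087. The summed signal of the list was 688 to 1440 on the nontransgenic and 549 to 739 on the SOD1-WT arrays. Most of the nontransgenic sum was Aqp1, at 10.36, 9.58 and 9.17 there and 5.20, 5.11 and 5.45 on the SOD1-WT arrays. The fall of the sum therefore does not describe Folr1 and Otx2, which rose. Of 8 measured genes of the oligodendrocyte lineage 1 rose and 2 fell (37.5% past the test). Pdgfra, of oligodendrocyte precursors and of fibroblasts, gave 9.82, 9.59 and 9.27 on the nontransgenic arrays, 7.47, 7.57 and 7.41 on the SOD1-WT arrays and 9.06, 8.98 and 8.89 on the SOD1-G93A arrays. It changed by -2.08 ± 0.13. Of the genes of myelinating cells Cnp rose by 0.45 ± 0.11 and Mbp, myelin basic protein, changed by -0.38 ± 0.11, a call lost without nontransgenic array 2 and without SOD1-WT array 1. A second gene of the list was higher without nontransgenic array 3. Olig1 and Sox10, transcription factors of the lineage, had differences of 0.31 ± 0.13 and -0.18 ± 0.097 that did not pass. Of the mural list Acta2 rose by 0.62 ± 0.11 and Pdgfrb changed by -0.69 ± 0.097, and of the neuron list Gad1 changed by -0.69 ± 0.16, with Nefl, Nefm and Syt1 detected in neither group.

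Of 5 measured genes of positional identity in the hindbrain and spinal cord 3 rose, and of 3 such genes of the forebrain 2 rose. These shares, of 5 and 3 genes, were 60% and 66.7% past the test, against 27.4% of all autosomal genes. On the array were 13 genes of the first list and 7 of the second, and those not measured failed the detection rule. The rises of the first list were 2 at the lowest over the alternative settings. En2 met the detection rule only through the SOD1-WT arrays. Irx3 rose by 1.52 ± 0.11, Gbx2, of the midbrain and hindbrain border, by 1.02 ± 0.11, and En2 by at least 2.06-fold, with no detection on the nontransgenic arrays. Otx1 rose by 1.14 ± 0.12 and Nkx2-1, a gene of the ventral forebrain, by 1.02 ± 0.11. These genes were higher in SOD1-G93A glia too, with Gbx2 at 7.61, 7.58 and 7.67 on its arrays against 5.97, 6.07 and 6.22 on the nontransgenic and 6.90, 7.09 and 7.31 on the SOD1-WT arrays.

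NRF2 is the transcription factor that switches on antioxidant genes under oxidative stress. Of 26 measured NRF2, glutathione and thioredoxin genes 12 fell and none rose, with a median of -0.32. That is 46.2% past the test, against 27.4% of all autosomal genes. Without SOD1-G93A array 3 or SOD1-WT array 2, 1 rose. Slc7a11, the cystine importer that limits glutathione synthesis, had log2 intensities of 7.47, 6.80 and 7.03 on the nontransgenic arrays, 4.82, 4.80 and 4.91 on the SOD1-WT arrays and 6.72, 6.39 and 6.51 on the SOD1-G93A arrays. The SOD1-WT arrays lay below all others, with a change of -2.26 ± 0.15 (limma adjusted p = 5.39e-08). Nqo1, a quinone reductase, gave 8.44, 8.13 and 8.20 on the nontransgenic arrays, 6.65, 6.68 and 6.54 on the SOD1-WT arrays and 7.69, 7.52 and 7.79 on the SOD1-G93A arrays. The 3 groups did not overlap, and the change was -1.63 ± 0.11 (adjusted p = 7.49e-08). The glutathione transferases Gsta3 and Gstm2 changed by -1.59 ± 0.12 and -0.89 ± 0.096, the peroxidase genes Prdx2 and Gpx7 by -1.02 ± 0.097 and -1.20 ± 0.12, and Srxn1, which restores oxidized peroxiredoxins, by -0.85 ± 0.11. Nfe2l2, the gene of NRF2 itself, had a difference of 0.42 ± 0.16 (adjusted p = 0.0777), and Hmox1, heme oxygenase, one of -0.26 ± 0.14 (adjusted p = 0.208). Taldo1, of the pentose phosphate pathway, changed by -1.55 ± 0.11. The meningeal signal moved in the same direction as these genes, and its part in them was not tested.

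Inflammatory genes went both ways. Of 29 measured cytokines and chemokines 5 rose and 9 fell, 48.3% past the test against 27.4% of all autosomal genes. Without SOD1-WT array 3 or without nontransgenic array 2 the number that rose was 3. The number that fell was 7 without SOD1-WT array 3 and ran from 6 to 10 when each array was left out in turn. Ccl12 counts as a fall by its brighter probe, at -0.82, while its other probe rose by 4.80. Cxcl10, an interferon-induced chemokine, stood at 4.17, 4.14 and 4.13 on the nontransgenic arrays, 6.72, 6.57 and 6.56 on the SOD1-WT arrays and 5.95, 6.49 and 6.03 on the SOD1-G93A arrays. It was detected on no nontransgenic array and was at least 4.02-fold higher in SOD1-WT glia. Ccl2, which attracts monocytes, gave 5.37, 5.85 and 5.86 on the nontransgenic arrays, 7.50, 7.14 and 6.96 on the SOD1-WT arrays and 8.21, 8.15 and 8.17 on the SOD1-G93A arrays. Both transgenic groups were higher, SOD1-G93A glia the most, and the rise in SOD1-WT glia was 1.51 ± 0.15 (limma adjusted p = 3.78e-06). Cxcl12, a chemokine of meninges and stroma, changed by -1.90 ± 0.12, and Il33, an alarmin of glial nuclei, by -0.66 ± 0.092.

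Of 11 measured complement genes 5 fell and none rose, 45.5% past the test against 27.4% of all autosomal genes. C2, of the classical pathway, had log2 intensities of 8.76, 8.73 and 8.51 on the nontransgenic arrays, 5.42, 5.89 and 6.02 on the SOD1-WT arrays and 7.29, 7.46 and 7.53 on the SOD1-G93A arrays. The groups separated fully, and the change was -2.89 ± 0.14 (limma adjusted p = 4.33e-09). Serping1, the inhibitor of C1, changed by -0.82 ± 0.098 and Cd55, which protects host cells, by -0.58 ± 0.11. Of 22 interferon-induced genes 8 rose and 4 fell (54.5% past the test). There were 5 rises without nontransgenic array 1 and 2 falls without nontransgenic array 3 or SOD1-WT array 2. Rsad2, an antiviral enzyme, rose by 1.10 ± 0.19 and the GTPase gene Igtp by 0.87 ± 0.12, while Stat2 and Irf1, which carry the interferon signal, changed by -0.79 ± 0.11 and -0.57 ± 0.096. Of 15 genes of class I antigen presentation 5 rose, each by less than 2-fold, and none fell. That is 33.3% past the test, near the 27.4% of all autosomal genes. H2-T22 rose by 0.56 ± 0.12. H2-K1 had a difference of 0.56 ± 0.18 that passed the test but lost its call in 7 of 21 alternative settings, with an adjusted p of up to 0.134. The count of rises was 2 or 3 when any 1 of nontransgenic arrays 2 and 3 and SOD1-WT arrays 1 and 2 was left out, and without SOD1-WT array 3 it was 4, with 1 gene lower. Because these genes lie in a region with many near-identical copies, their probes may read more than 1 gene.

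Reactive astrocyte genes gave 7 rises and 7 falls among 26, 53.8% past the test against 27.4% of all autosomal genes. Tgm1, a transglutaminase, rose by 1.13 ± 0.11, and Sphk1, a kinase of sphingosine, changed by -1.81 ± 0.10. Of 23 growth and trophic factors 4 rose and 4 fell (34.8% past the test). Mia, a small secreted matrix-binding protein, gave 6.65, 6.75 and 6.54 on the nontransgenic arrays, 8.76, 9.11 and 9.07 on the SOD1-WT arrays and 7.49, 7.14 and 7.48 on the SOD1-G93A arrays. It rose by 2.34 ± 0.13 (limma adjusted p = 8.71e-09), Clu, the secreted chaperone clusterin, by 1.02 ± 0.11 and Pdgfb by 0.89 ± 0.096, while pleiotrophin, Ptn, changed by -0.50 ± 0.11.

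Of 32 measured proteasome genes 2 fell and none rose, 6.25% against 27.4% of all genes, and of 53 genes of the respiratory chain and ATP synthase 2 rose and 6 fell (15.1%). The proteasome falls ran from 0 without nontransgenic array 3 to 4 without SOD1-WT array 1, and were 1 without any other array. The 6 falls of the respiratory chain list became 1 without nontransgenic array 1 and 3 without nontransgenic array 2. Among 19 genes of the unfolded protein and heat shock response 3 rose and 3 fell (31.6% past the test). Hsph1 and Hspb8, heat shock chaperones, rose by 0.61 ± 0.092 and 0.54 ± 0.10. Ddit3, a transcription factor of prolonged stress, changed by -0.50 ± 0.13, a call lost without nontransgenic array 1. Without SOD1-WT array 3 the rises of this list were 5. In cholesterol and fatty acid synthesis 2 of 23 genes rose and 5 fell (30.4% past the test). There was 1 fall without nontransgenic array 1 and 3 without nontransgenic array 3 or SOD1-WT array 1. Among 23 lysosomal genes 2 rose and 5 fell (30.4% past the test), with Ctsk, cathepsin K of bone and fibroblasts, changing by -2.12 ± 0.10. In the cell cycle list of 28 genes 1 rose and 6 fell (25% past the test), and 12 fell when SOD1-WT array 3 was left out. Cdkn2a, a locus of cell cycle inhibitors, changed by -1.12 ± 0.097.

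**Figure D4:**
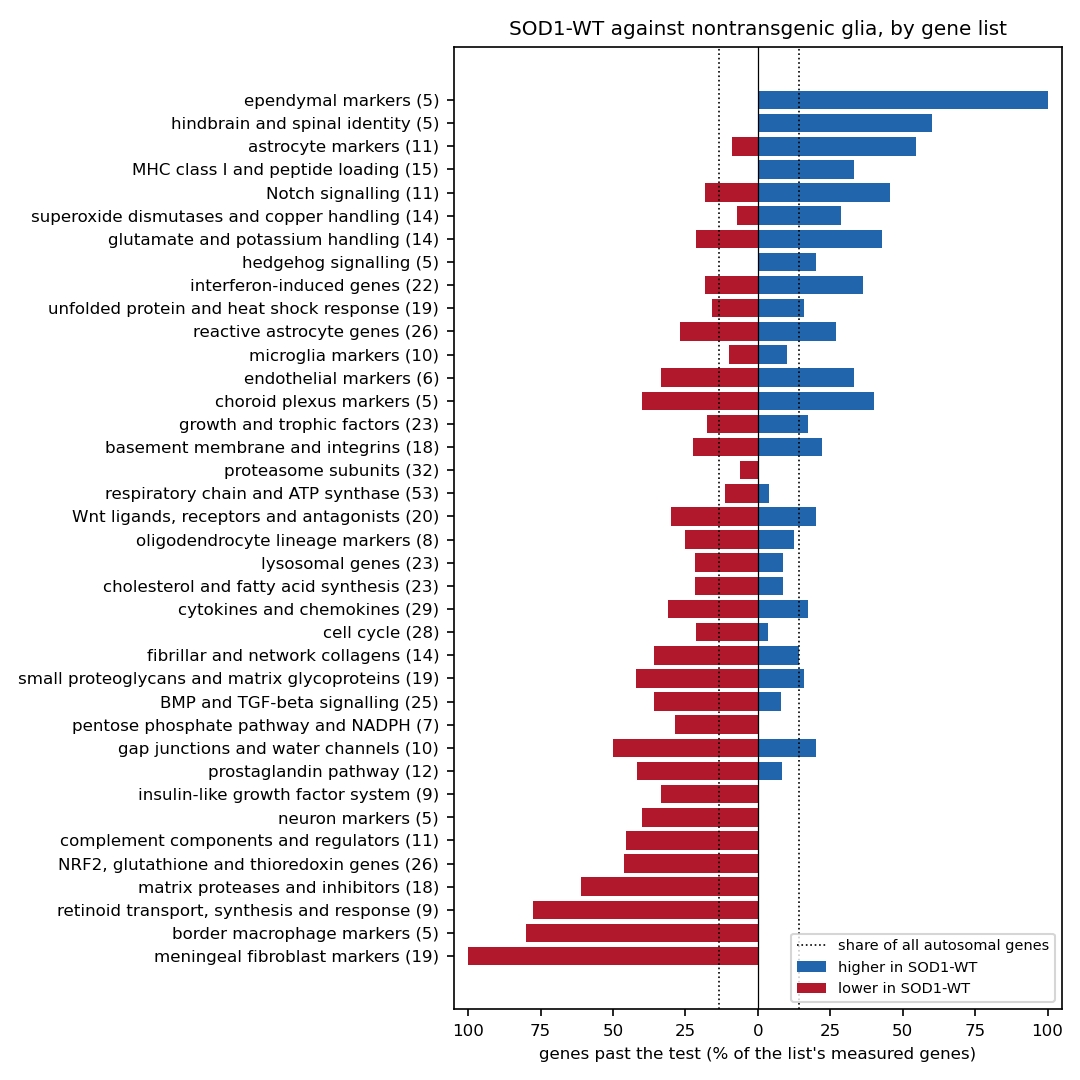
For each list with at least 5 measured genes, the number of which stands in parentheses, bars give the percentage of those genes that were higher (to the right) or lower (to the left) in SOD1-WT glia at an adjusted p under 0.05. Dotted lines mark the same shares of all autosomal genes, 14.2% higher and 13.3% lower. The ependymal list reached 100% higher and the meningeal fibroblast list 100% lower, while the proteasome subunits stayed under both lines.

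Several of the largest rises were measured on 1 probe of a gene and were smaller or reversed on its other probes. The probe for Ccl12, a chemokine, that rose most of all stood at 4.31, 4.36 and 4.60 on the nontransgenic arrays, 9.25, 9.11 and 9.31 on the SOD1-WT arrays and 9.78, 9.71 and 9.82 on the SOD1-G93A arrays. It was detected on no nontransgenic array, and was at least 24.4-fold higher in SOD1-WT glia. The brighter probe of the same gene changed by -0.82 ± 0.14, from 8.46, 8.93 and 8.74 on the nontransgenic arrays to 7.79, 7.74 and 8.15 on the SOD1-WT arrays. Ctsc, the protease cathepsin C, had a probe at least 8.86-fold higher and a brighter one that rose by 0.82 ± 0.12. Actb, beta-actin, a gene with many processed pseudogenes, had 4 kept probes: the brightest had a difference of 0.06, and the others changed by 1.43, 2.69 and -0.58.

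Other genes of that kind had 1 kept probe. Pttg1, securin of the separating chromosomes, gave 4.55, 4.34 and 4.47 on the nontransgenic arrays, 9.21, 9.28 and 8.52 on the SOD1-WT arrays and 7.998, 8.08 and 7.99 on the SOD1-G93A arrays. It was detected in both transgenic groups and on no nontransgenic array, and was at least 21-fold higher in SOD1-WT glia. Tmem68, with 4.47, 4.29 and 4.37 on the nontransgenic arrays, 8.19, 8.17 and 8.13 on the SOD1-WT arrays and 8.18, 7.88 and 7.96 on the SOD1-G93A arrays, showed the same pattern, and its values in the transgenic groups overlapped. Plek, a protein of blood-derived cells, was at least 8.97-fold higher and Coq2, of ubiquinone synthesis, at least 6.58-fold, each also detected on the SOD1-G93A arrays. Rec8, a cohesin subunit of meiosis, was detected on the SOD1-WT arrays alone and was at least 4.86-fold higher. Of 1826 genes with at least 2 kept probes, 609 had at least 1 past the test and 204 had every probe past it in 1 direction. In 6 genes, namely Actb, Ccl12, Cfl2, Erlec1, Map1b and Mfap3, probes passed in opposite directions.

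**Figure D5:**
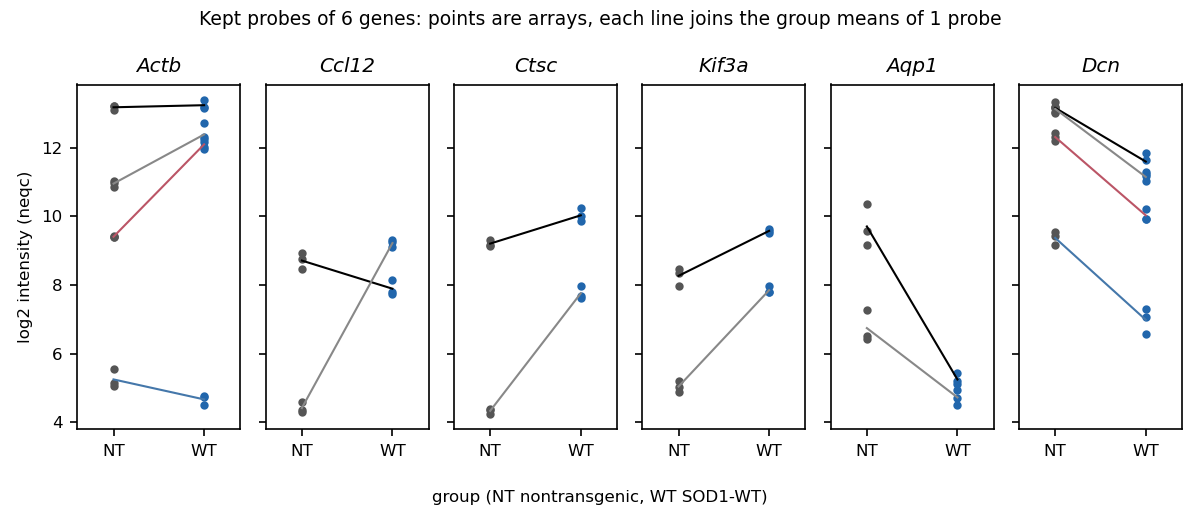
Log2 intensity (vertical axis) of every kept probe of Actb, Ccl12, Ctsc, Kif3a, Aqp1 and Dcn on the nontransgenic (NT) and SOD1-WT (WT) arrays, 1 point per array, with a line joining the group means of each probe. The lines of Dcn and Aqp1 all fall, those of Ctsc and Kif3a rise by unequal amounts, and those of Ccl12 and Actb run in both directions.

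The share of genes past the test varied little along the genome, from 21.6% on chromosome 19 to 31.8% on chromosome 14. Changes of at least 2-fold made up 3.75% of genes on chromosome 19 and 8.31% on chromosome 14. Of the 20 largest rises 6 lie on chromosome 11 (Ccl12, Pttg1, Sparc, Plek, Kif3a and Trim11), a chromosome with 825 of the 9342 genes, as was seen after the genes had been listed. Of the 20 largest falls 1 does. The 20 rises were ranked by the most raised probe of a gene, whereas the 9342 genes are counted by their brightest probe. By the brightest probe Ccl12 changed by -0.82 and Kif3a by 1.31, so the 2 counts are not on the same footing. Genes that changed at least 2-fold were mostly alone among their measured neighbours: 416 stood singly, 42 pairs were next to each other and 2 runs held 3. One such run was Irx3, Irx5 and Mmp2, where the first pair rose by 1.52 ± 0.11 and 1.65 and Mmp2 changed by -1.57 ± 0.11.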

How the data were processed

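Total RNA of 9 glial cultures was amplified, labelled with biotin and read on Illumina mouse BeadArrays. Per the file headers, the deposited raw file holds mean bead intensity, bead count, bead standard error and detection p-value of 24613 probes. The authors' normalised intensity table was used as an alternative, after 11.1 had been added to each value. The arrays were processed in BeadStudio (version not stated), per the submitters' processing notes, and a genome build is not given in the sources used here.

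Raw intensities were background-corrected, quantile-normalised and put on the log2 scale with neqc in limma 3.58.1, with negative controls inferred from the detection p-values and an offset of 16. The deposited detection p-value served as the filter, under 0.01 on at least 3 of the 6 arrays. One limma fit over 9 arrays with 3 group means gave moderated two-sided tests, adjusted by Benjamini-Hochberg over 13631 probes, with a threshold of 0.05. For a gene detected on no array of a group, a lower bound against the array's lowest detected signal replaces the fold. The fit was checked on simulated data. Computation ran in R 4.3.3, and tables were read through the data.table package, release 1.17.8.

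Symbols came from the platform annotation (20984 probes with 1 symbol, 1 with several, 3628 with none), updated by gene identifier (20967), by accession (8) or kept as given (9). Named genes were the 20 largest rises and 20 largest falls without overlap of the groups, at most 6 members per list (42 lists) by smallest p, Sod1, Gfap, cell type markers and up to 6 genes with opposing probes. A few other list members and the gene families were named after their values had been seen. The members and lists were chosen with earlier results of these data known, and X-linked list members were left out. Samples were not paired by replicate number, because the labels do not say that it marks a shared litter or day. Deviations of same-numbered arrays correlated at 0.05, -0.02 and 0.14, and those of differently numbered arrays at -0.12 to 0.11. With 3 arrays a group these values cannot settle whether same-numbered arrays were prepared together.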

Additional observations from a re-analysis of the deposited data

How the results depend on the processing

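The counts of called, higher, lower and 2-fold changed probes stayed within 1.5 times of the reported ones under all 21 alternatives, among them another normalization, median scaling, a fit on the 6 arrays alone, the authors' values and other filters. Leaving out each array in turn gave 2445 to 3021 called probes, 1276 to 1567 higher, 1169 to 1454 lower and 539 to 587 of at least 2-fold. Keeping only probes detected on all 6 arrays tested fewer genes and left 12 meningeal markers lower, against 19. With the replicate number as a block 3112 probes were called, against 3025 without it. The higher share of calls ran from 51.9% to 56.9%, and no setting moved the median of all probes by more than 0.021. Of 319 called probes of genes named, listed or in the families, 272 kept their call under every alternative that tested them, 47 lost it under at least 1 and 0 reversed. Probes not detected on all 6 arrays, among them those of Ccl12, Pttg1, Foxc2 and Cdh5 with some of the largest changes, were not tested where that detection was required. Sod1 was not called with median scaling (0.29, adjusted p = 0.142), nor with the authors' values (0.28, adjusted p = 0.0909). The alternatives for gene families and the list counts without SOD1-WT array 3 were added after seeing the data. With 3 arrays a group, the smallest change called was 0.25 on the log2 scale. That is not a limit of detection, because it depends on the spread of each probe. Larger differences also failed, such as -0.69 ± 0.26 for 1 probe of Ndufa5 (limma adjusted p = 0.0691).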
